A study of Mus musculus with 12 samples.

Results

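Zfp42, also called Rex1, lies on the minus strand of mouse chromosome 8 at 43295067 to 43307009 (RefSeq gene 22702 on GRCm38.p6, which is the same assembly as mm10). The ESRRB binding regions described here are those whose nearest protein-coding gene is Zfp42 and whose centre lies inside the gene or within 100 kb of it. There were 18 such regions among 86201 in the deposited count table. ChIP-seq, the sequencing of DNA fragments pulled down with an antibody, here to ESRRB, was run on untreated mouse embryonic stem cells kept in serum and leukaemia inhibitory factor. NanogKO:Esrrb:Nanog, called "with Nanog" here, gave 3 ChIP libraries, and NanogKO:Esrrb, called "without Nanog", gave 3 more. By these titles both lines lack endogenous Nanog and carry Esrrb, and they differ in an added Nanog. Counts in regions summed to between 6689166 and 8382646 per library with Nanog and between 2734338 and 5193707 without Nanog, so values without Nanog carry more counting error. All samples share the cell line entry N{delta}:cE:iN, so only the titles separate the lines, and the sources used here do not state how Nanog was added back or what drives it. Fixation was by formaldehyde alone or with di(N-succinimidyl) glutarate after it, and the labels do not state which samples had which.

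Zfp42 encodes REX1, a zinc finger protein related to the transcription factor YY1. Its expression marks naive pluripotent cells and is lost as embryonic stem cells differentiate, so it is widely used as a reporter of that state. ESRRB is an orphan nuclear receptor that binds DNA as a monomer at an extended half-site, TCAAGGTCA. NANOG is a homeodomain factor of the same pluripotency network, and ESRRB is known to stand in for some of its functions when it is absent.

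ESRRB occupied the Zfp42 start site and a string of sites reaching almost 50 kb upstream. The start site region, centred 212 bp upstream of the annotated start, spans 43306812 to 43307630 on chromosome 8 and holds the whole proximal promoter. The 250 bases before the start are shown because they lie entirely within this region (RefSeq, GRCm38.p6, chr8:43307010-43307259, minus strand, 5′ to 3′). Capitals mark the first 6 letters of the half-site, TCAAGG, on either strand (CCTTGA on the opposite one), and ATTTGCAT, the octamer recognised by POU factors such as OCT4.
Zfp42 promoter: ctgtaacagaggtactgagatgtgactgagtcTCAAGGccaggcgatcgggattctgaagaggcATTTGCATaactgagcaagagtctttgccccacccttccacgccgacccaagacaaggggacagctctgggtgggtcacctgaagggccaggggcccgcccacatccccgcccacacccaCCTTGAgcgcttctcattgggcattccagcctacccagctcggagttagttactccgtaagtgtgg
The full half-site TCAAGGTCA was not among these letters, on either strand. The same letters with any base at position 7, TCAAGGNCA, matched once, 218 bases before the start, where the match overlaps the first of the shorter matches. These shorter matches, to TCAAGG, were at 2 places, beginning 218 and 66 bases before the start, and ATTTGCAT at 1 place, 186 bases before it. Among 32851 promoter windows of the same length, 0.387% held TCAAGGTCA, 1.39% held TCAAGGNCA, 12.5% held TCAAGG and 1.60% held ATTTGCAT, with both strands counted. At least 2 matches to TCAAGG were found in 0.922% of windows. These letters were searched after the sequence had been read, and a match does not show that a protein binds there. For the other 17 regions no sequence was used here.

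All 18 regions passed the filter on low counts and were tested. Signal is given as CPM, the usual count scaled to a common library total, here the reads in tested regions after scaling by the trimmed mean of M values (TMM). With Nanog, 8 regions were higher and 1 was lower than without Nanog, and 9 were not called (quasi-likelihood test of edgeR with Benjamini-Hochberg adjustment over all 84892 regions tested, at 0.05). Over all regions tested, 9.42% were higher and 9.78% lower, against 44.4% and 5.56% at Zfp42. DESeq2 called 5 regions higher and 0 lower, where it called 6.57% and 7.50% of all regions. The median log2 fold change, with over without Nanog, was 0.57 over the 18 regions and -0.01 over all regions tested. The libraries of the lines did not overlap at 12 regions, with the Nanog line above at 11 and below at 1, where 17.0% and 16.8% of all regions tested did so. Leaving out 1 library with Nanog gave 5 higher calls whichever of A, B or C was left out. Leaving out A, B or C without Nanog gave 6, 8 and 3 higher calls. The count over all regions moved too, from 7997 higher of 84892 in the main fit. It was 6275 of 84648, 4988 of 84826 and 5506 of 84831 without A, B or C of the line with Nanog. It was 6680 of 85439, 9288 of 85430 and 5683 of 85439 without A, B or C of the line without Nanog. Nothing in the labels tells whether replicate libraries were grown as separate cultures, so p-values reflect the spread among libraries, possibly a technical one.

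**Figure D1:**
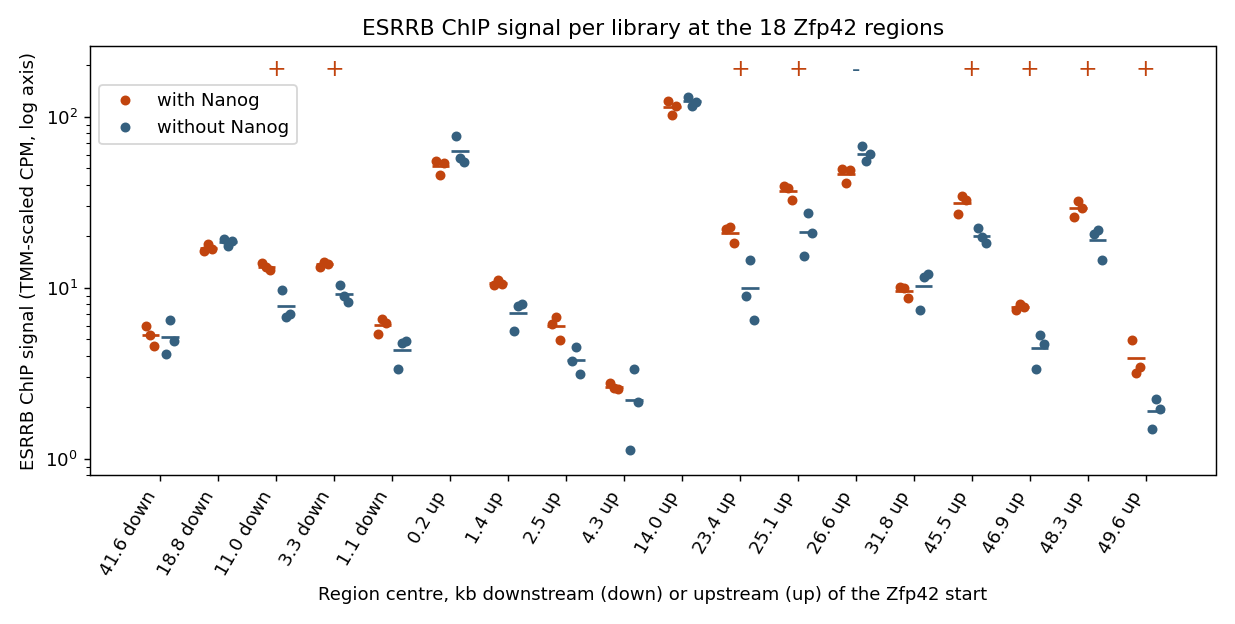
ESRRB ChIP signal in each library at the 18 Zfp42 regions, in TMM-scaled CPM on a log axis, with regions in order along the chromosome from 41.6 kb downstream to 49.6 kb upstream of the gene start. Points are libraries, short lines are means of 3 libraries, and plus and minus signs mark the 8 regions called higher and the 1 called lower with Nanog.

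Signal at the locus was concentrated in 3 regions, which lay at the start site and 14.0 kb and 26.6 kb upstream of it. The region 14.0 kb upstream (43320427 to 43321665) was the strongest, and 0.223% of all regions in the table had more signal. It held 125, 102 and 115 CPM in libraries A, B and C with Nanog, and 131, 116 and 122 CPM in A, B and C without Nanog, and the ranges overlap. It was not called, with a log2 fold change of -0.11 ± 0.10 (SE; edgeR, Benjamini-Hochberg adjusted p = 0.496). The value turned positive, at 0.07, with an offset fitted to signal strength.

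The promoter region held 55.4, 45.8 and 54.0 CPM with Nanog, and 76.8, 57.5 and 54.1 CPM without Nanog. Its highest value came from library A without Nanog, and the lowest library without Nanog stood next to the upper libraries with Nanog. Its log2 fold change was -0.26 ± 0.13 and it was not called (edgeR, Benjamini-Hochberg adjusted p = 0.161). Leaving out library A without Nanog brought it to -0.098 (edgeR, Benjamini-Hochberg adjusted p = 0.677). Leaving out B or C without Nanog gave larger falls, of -0.30 and -0.36 (edgeR, Benjamini-Hochberg adjusted p = 0.0822 and 0.0921). With A, B or C of the line with Nanog left out, the value was -0.31, -0.18 and -0.30. Among 5917 regions that overlap a RefSeq promoter window, it ranked 281 by signal. Of the tested regions on promoters 3.64% were higher and 5.03% lower.

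The region 26.6 kb upstream (43333243 to 43333892) was the only region called lower with Nanog. It held 49.4, 40.9 and 48.7 CPM with Nanog, and 67.1, 55.0 and 60.4 CPM without Nanog. Every library with Nanog lay below every library without it, and the log2 fold change was -0.39 ± 0.12 (edgeR, Benjamini-Hochberg adjusted p = 0.0254). DESeq2 did not make this call (adjusted p = 0.0596). It was also lost in edgeR on leaving out library B or C with Nanog (adjusted p = 0.161 and 0.0592) or library A or C without Nanog (adjusted p = 0.129 and 0.0687). Lower calls are frequent at such signal: at or above the mean log-CPM of the weakest of these 3 regions, 33.0% of all regions tested were lower and 9.98% higher.

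Immediately beside it the direction was the opposite. The region 25.1 kb upstream (43331617 to 43332512), separated by a gap of 730 bp, held 39.2, 38.3 and 32.7 CPM with Nanog, and 15.3, 27.5 and 21.0 CPM without Nanog. It was higher with Nanog, by a log2 fold change of 0.77 ± 0.16 (edgeR, Benjamini-Hochberg adjusted p = 0.00122). Its counts were 0.794, 0.937 and 0.673 times those of its lower neighbour with Nanog, and 0.228, 0.50 and 0.347 times without Nanog. This ratio is taken within a library and does not depend on the scaling between libraries; the pair was picked after its values were seen, so it was not tested.

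The largest fold change of the locus was at 23.4 kb upstream (43330083 to 43330742). This region held 22.0, 22.6 and 18.3 CPM with Nanog, and 8.95, 14.6 and 6.47 CPM without Nanog. The lines did not overlap, although library B without Nanog stood above its own line here and at 25.1 kb upstream. The log2 fold change was 1.10 ± 0.22 (edgeR, Benjamini-Hochberg adjusted p = 0.00062), a fitted fold of 2.15. No other fitted fold of the 18 regions reached 2, while by the plain ratio of mean CPM the region 49.6 kb upstream also did, at 2.03. On leaving out library B without Nanog, the log2 fold change at 23.4 kb upstream was 1.51. The calls at 23.4 kb and 25.1 kb upstream held in all 15 alternative fits. The region farther upstream, at 31.8 kb, was not called, with 9.58 ± 0.80 CPM with Nanog and 10.3 ± 2.5 CPM without Nanog (SD, n = 3 per line).

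At the upstream end, 45.5 kb to 49.6 kb from the start, all 4 regions were higher with Nanog. The region at 45.5 kb (43352165 to 43352788) held 27.0, 34.6 and 32.5 CPM with Nanog, and 22.4, 19.9 and 18.2 CPM without Nanog. Its log2 fold change was 0.65 ± 0.16 (edgeR, Benjamini-Hochberg adjusted p = 0.00378, and adjusted p = 0.075 with libraries thinned to equal totals). The region at 48.3 kb (43354743 to 43355777) held 26.1, 32.2 and 29.2 CPM with Nanog, and 20.5, 21.9 and 14.5 CPM without Nanog. Its log2 fold change was also 0.65, ± 0.17 (edgeR, Benjamini-Hochberg adjusted p = 0.00673), and the call was lost without library C of the line without Nanog (adjusted p = 0.0767). At neither region did the lines overlap.

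The 2 smaller regions between and beyond these were near the threshold. The region at 46.9 kb (43353733 to 43353998) held 7.44, 8.02 and 7.77 CPM with Nanog, and 3.36, 5.33 and 4.71 CPM without Nanog, with a log2 fold change of 0.76 ± 0.26 (edgeR, Benjamini-Hochberg adjusted p = 0.0366). DESeq2 did not call it (adjusted p = 0.106). Of the edgeR fits with a library left out, its call held only when that was B without Nanog. Adjusted p ran from 0.0707 to 0.111 when any other library was left out. The call held in 7 of the 14 alternative fits that tested it. The region at 49.6 kb (43356526 to 43356745) held 4.96, 3.18 and 3.44 CPM with Nanog, and 1.49, 2.24 and 1.96 CPM without Nanog, with a log2 fold change of 0.97 ± 0.34 (edgeR, Benjamini-Hochberg adjusted p = 0.0426). Here the counts were as low as 4 in a library, DESeq2 gave no adjusted p, and the edgeR call again held, of the fits with a library left out, only when that was B without Nanog (adjusted p from 0.0526 to 0.187 otherwise). Summed over the 4 regions, signal was 72.1 ± 6.3 CPM with Nanog and 45.5 ± 5.3 CPM without Nanog (SD, n = 3 per line).

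**Figure D2:**
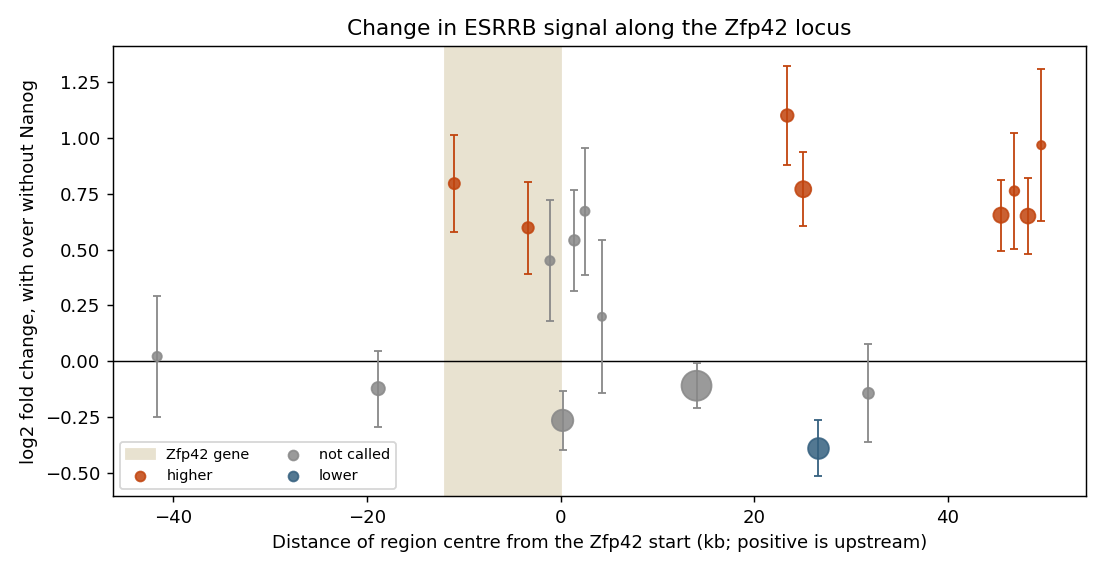
Log2 fold change of ESRRB signal, with over without Nanog, against the distance of each region from the Zfp42 start in kb, with error bars of 1 SE, point area by mean CPM and the gene shaded. The 4 regions from 45.5 kb to 49.6 kb upstream are all above 0, while the strongest region, 14.0 kb upstream, is at -0.11 and the region 26.6 kb upstream is at -0.39.

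Inside the gene there were 3 regions, of which 2 were higher with Nanog. Exon and intron boundaries were not used here. The region near the gene's end, 11.0 kb downstream of the start (43295818 to 43296273), held 14.0, 13.2 and 12.7 CPM with Nanog, and 9.69, 6.73 and 7.06 CPM without Nanog. The lines did not overlap and the log2 fold change was 0.80 ± 0.22 (edgeR, Benjamini-Hochberg adjusted p = 0.00977, and adjusted p = 0.0515 without library C of the line without Nanog). The region 3.3 kb downstream of the start (43303401 to 43303921) held 13.3, 14.2 and 13.8 CPM with Nanog, and 10.4, 8.98 and 8.24 CPM without Nanog. Its log2 fold change was 0.60 ± 0.21 (edgeR, Benjamini-Hochberg adjusted p = 0.0391). DESeq2 did not call it (adjusted p = 0.0923), and edgeR lost it on leaving out A, B or C with Nanog (adjusted p = 0.0779, 0.115 and 0.102) or C without Nanog (adjusted p = 0.146). The pseudogene Zfp42-ps1 on chromosome 15 overlaps 0 regions of the table; whether reads were shared between the copies was not tested.

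Around the start site, 4 small regions had positive fold changes and were not called. They lay 1.1 kb downstream of the start and 1.4, 2.5 and 4.3 kb upstream of it, with log2 fold changes of 0.45, 0.54, 0.67 and 0.20. The libraries with Nanog lay above all those without it at the first 3 of them and overlapped at 4.3 kb upstream, where counts were as low as 3 in a library. Past the gene's end, the regions 18.8 kb and 41.6 kb downstream of the start were not called either (log2 fold change -0.12 ± 0.17 and 0.02 ± 0.27, SE). The first held 17.1 ± 0.80 CPM with Nanog and 18.6 ± 0.88 CPM without Nanog (SD, n = 3 per line).

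Summed over the locus, the lines differed by a log2 ratio of 0.12, while the 3 strongest regions and the other 15 went apart, at -0.22 and 0.56. Signal summed over the 18 regions was 440, 415 and 423 CPM with Nanog, and 412, 392 and 373 CPM without Nanog. Every library with Nanog was above every library without it, by 426 ± 13 against 392 ± 20 CPM (SD, n = 3 per line; exact permutation test, two-sided, p = 0.1, the smallest that 3 against 3 libraries can give). The 3 strongest regions held 229, 189 and 218 CPM with Nanog, and 275, 229 and 236 CPM without Nanog. The other 15 held 211, 227 and 205 CPM with Nanog, and 137, 163 and 136 CPM without Nanog.

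Shares of the counts within each library, which need no scaling between libraries, show the same split in another form. CPM divides all counts of a library by a common factor, so the shares follow from the sums above and are not separate support. The 3 strongest regions took 52.1%, 45.4% and 51.6% of the locus counts with Nanog, and 66.8%, 58.4% and 63.5% without Nanog. The promoter region alone took 12.6%, 11.0% and 12.8% with Nanog, and 18.7%, 14.7% and 14.5% without Nanog. The 3 regions were set apart after their signal was seen, so these sums and shares carry no test. Locus counts were 3020, 3521 and 3321 with Nanog, and 1104, 1398 and 1900 without Nanog, so the shares without Nanog rest on fewer reads.

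**Figure D3:**
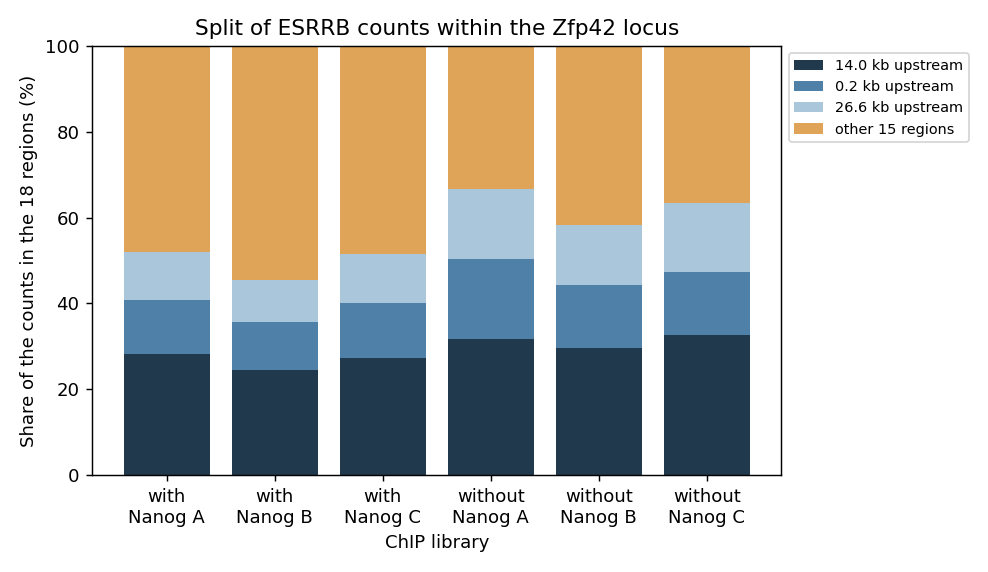
Share of the ESRRB counts in the 18 Zfp42 regions taken by the 3 strongest regions and by the other 15, in percent, for each of the 6 ChIP libraries. The 3 strongest regions together take 45.4% to 52.1% with Nanog and 58.4% to 66.8% without Nanog.

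Fold changes were lower at the strongest regions elsewhere in the table too. In all tested regions with a mean log2 CPM of 6.5 to 7, the median log2 fold change was -0.21, and 5.0% were higher and 39.4% lower. Between 4.5 and 5, the median was -0.03, with 14.5% higher and 16.6% lower. From 2 to 5.5 the medians by bin ran from -0.07 to -0.02 without a steady fall. At weaker signal they were positive: 0.35 from 1 to 1.5, with 13.7% higher, and 0.09 from 1.5 to 2, with 7.29% higher. The Zfp42 regions 4.3 kb and 49.6 kb upstream lie in these bins, at 1.42 and 1.60. Spearman's rho between mean log-CPM and log2 fold change was -0.30 over the 18 Zfp42 regions and -0.14 over all regions tested, both across regions that share the same 6 libraries. Below the signal of the 3 strongest regions, 8 of 15 Zfp42 regions were higher and 0 lower, against 9.41% and 9.20% of all regions tested below that signal. This cut sets aside the only Zfp42 region called lower, so the 0 follows from where it was drawn.

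**Figure D4:**
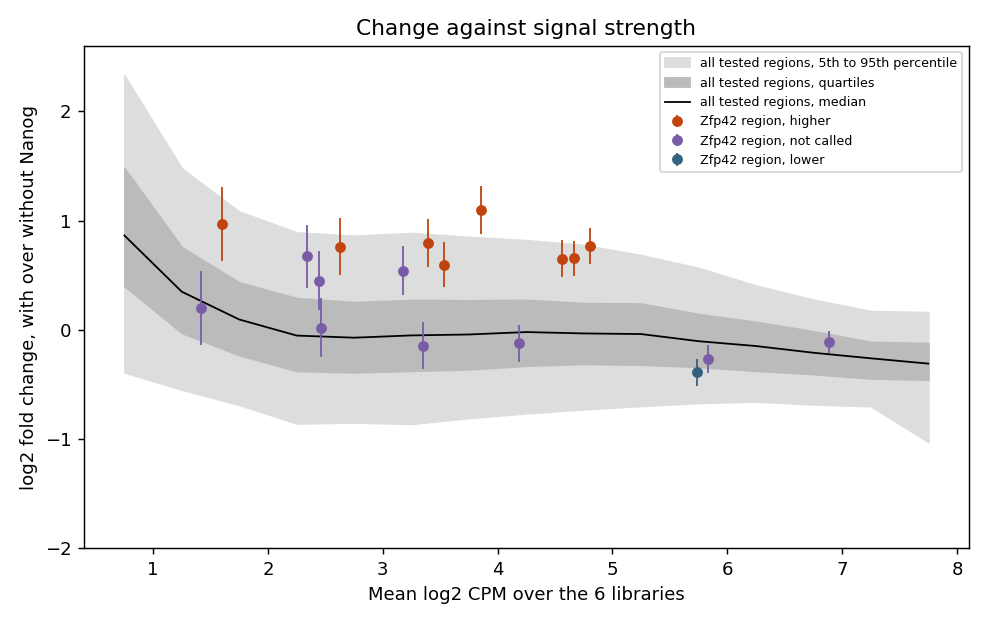
Log2 fold change, with over without Nanog, against mean log2 CPM for the 18 Zfp42 regions (points, bars of 1 SE) over the percentiles of all tested regions in bins of signal. The 8 regions called higher lie above the upper quartile of all regions of like signal, and the 3 strongest regions lie below 0.

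Of the deposited peak lists there is 1 per line. All 18 regions overlap a peak of the list with Nanog, and 10 also overlap a peak of the list without it. That put 8 of 18 (44.4%) in the list with Nanog alone, against 60.8% of all tested regions, and 10 of 18 (55.6%) in both lists, against 38.4%. Of these 10, 5 were higher and 1 lower, where 7.40% and 20.8% of all tested regions in both lists were. Of the 8 that only the list with Nanog holds, 3 were higher and 0 lower, where 10.8% and 1.92% of all such regions were. The region with the largest fold change, 23.4 kb upstream, was in the list with Nanog alone. The lists come from the same libraries as the counts and are therefore not independent of them. A region with a peak in only 1 line may have entered the table through its signal in that line, which tilts its fold change that way. Among all tested regions, 51603 had a peak only with Nanog and 674 only without it. The higher calls at 23.4, 46.9 and 49.6 kb upstream are open to this selection, and its size was not tested.

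The neighbouring genes held few regions. The next regions of the table lie 83.5 kb below and 50.6 kb above the outermost Zfp42 regions on the chromosome. Of 7 protein-coding genes within 500 kb, 3 had regions of their own, 12 in all, and 0 of these were higher and 0 lower by edgeR. At the 9.42% higher and 9.78% lower of all tested regions, about 1 call in each direction would fall among 12, so the absence of calls does not set these genes apart. At an unadjusted p under 0.05 there was 1, and DESeq2 called 0. Triml2, a tripartite motif family-like gene 101 kb away, held 70.0, 59.4 and 64.7 CPM with Nanog, and 90.6, 64.2 and 66.5 CPM without Nanog at its strongest region. Its neighbour Triml1 held 9 regions, with log2 fold changes from -0.04 to 0.72. Among these 12 regions the lowest adjusted p was 0.108 (edgeR, Benjamini-Hochberg).

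Zfp42 stood high among genes by its share of higher regions. Of 1915 genes with at least 10 tested regions within 100 kb, 25 had a larger share of higher regions than Zfp42 and 1 had an equal share. The median share was 9.09% and the upper quartile 16.7%. The gene was picked with these results known, so its rank is a description.

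A list of 20 other pluripotency network genes held 311 tested regions, of which 48 (15.4%) were higher and 20 (6.43%) lower, against 9.42% and 9.78% of all tested regions, with a median log2 fold change of 0.18. DESeq2 called 29 of them higher and 11 lower, where it called 6.57% and 7.50% of the 72830 regions to which it gave an adjusted p. How many of the 311 had such a p is not given here. More higher than lower calls were made at 13 of these genes, more lower calls at 4 and no call at 2. Pou5f1, which encodes OCT4, had 4 higher and 0 lower calls among 9 regions. Klf4, a Krüppel-like factor of naive pluripotency, had 7 and 0 among 21. Esrrb itself had 9 and 0 among 33, and Prdm14, a PR-domain regulator, had 5 and 0 among 24. Sox2, a partner of OCT4, had 0 higher and 3 lower among 31, a lower share close to the 9.78% of all tested regions, and Sall4, a zinc finger factor, had 1 and 5 among 17.

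The strongest region was not called at 16 of the 20 network genes, nor at Zfp42. The same held for 76.1% of the 16000 genes with a tested region within 100 kb. It held for 63.1% of the 1915 genes with at least 10 such regions, a number that 11 of the 20 network genes reached. Whether the list differs from either background was not tested. The strongest region was higher at Nanog, Klf4 and Tcl1 and lower at Klf5, and DESeq2 did not make the calls at Nanog and Klf5 (adjusted p = 0.0576 and 0.0902). At Tdgf1, which encodes the NODAL co-receptor Cripto, it held 180 ± 5.8 CPM with Nanog and 177 ± 9.1 CPM without Nanog (SD, n = 3 per line). At Pou5f1 it held 96.8 ± 2.0 CPM with Nanog and 85.0 ± 1.7 CPM without Nanog. Among genes tied to REX1 itself, Yy1 had 0 calls among 9 regions by edgeR, with 1 at an unadjusted p under 0.05 and 0 by DESeq2, too few regions to read against the background. Rlim, the ubiquitin ligase that targets REX1 for degradation, had 0 higher and 1 lower among 5, and Yy2 had 0 regions.

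**Figure D5:**
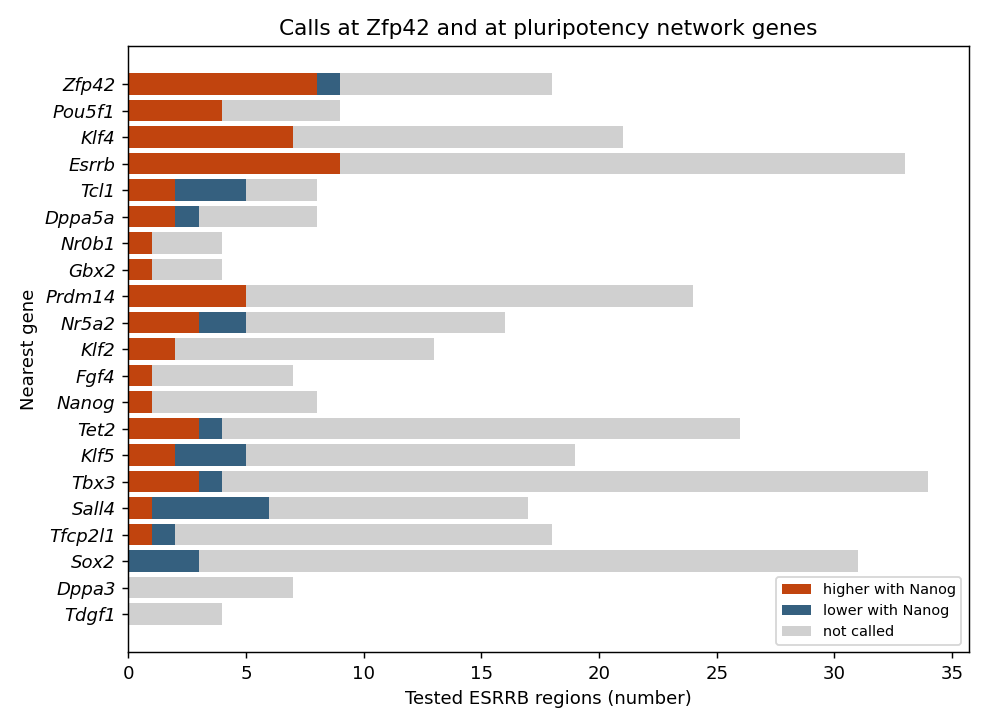
Number of tested ESRRB regions within 100 kb whose nearest gene is Zfp42 or one of 20 pluripotency network genes, split into those called higher, lower or not called with Nanog by edgeR. Zfp42 has 8 higher and 1 lower of 18, against 48 higher and 20 lower of 311 over the list.

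By its summed signal over the 6 libraries, centred on the log2 scale, Zfp42 was most like Rerg, Actn1, Nfyc, Basp1 and Fbxo27 among 1914 other genes with at least 10 regions. Their Euclidean distances to it ran from 0.045 at Rerg to 0.072 at Fbxo27, against a median of 0.343. Rerg, a RAS-related small GTPase gene, held 163, 157 and 162 CPM with Nanog, and 152, 148 and 140 CPM without Nanog, with 0 of its 12 regions called. Actn1, which encodes an alpha-actinin, had 2 higher and 1 lower of 20. The likeness is thus in how the summed signal varied over the 6 libraries, not in its size. It does not extend to the calls at single regions.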

How the data were processed

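The authors' deposited table holds raw read counts for 6 ChIP libraries per region, with sums of 2734338 to 8382646 per library and lower sums without Nanog; 12 samples are labelled, and the inputs were not analysed here. Per the submitters' processing notes, the build was mm10, and the tools named are Bowtie2, MACS2, deepTools, bcl2fastq 2.19.1, SAMtools 1.4.1 and bedtools 2.26.0; for order, settings, peak threshold, read counter and duplicate handling no source used here states anything. The deposited peak lists give coordinates with no score. Columns carry letters, not the titles' replicate numbers, and were matched to a line only. Within a line, libraries differed by more than sampling noise (chi-square over degrees of freedom, 1.33 to 2.53).

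Regions passing filterByExpr were scaled by TMM and tested with edgeR 4.0.16 (glmQLFit, glmQLFTest) in R 4.3.3, with the line as the only term and Benjamini-Hochberg adjustment at 0.05. A fold change here is relative to other regions, so a shift common to every region is invisible. Log-CPM has a prior count of 2. DESeq2 1.42.0 and limma-voom (limma 3.58.1) were alternatives. Distance was taken from a region's centre to the RefSeq gene span, and 4 regions had no gene on their sequence. Coordinates are 1-based. Peak overlap needed 1 bp. Regions described in every library are those called, the strongest, and the nearest to each end of the gene. Likeness was the Euclidean distance between log2 summed CPM of the 6 libraries, each gene centred on its mean, for the 5 closest genes. The gene, the lists and the tests were chosen with earlier results of these data known.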

Additional observations from a re-analysis of the deposited data

How the results depend on the processing

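Against 8 higher and 1 lower region at Zfp42, DESeq2 gave 5 and 0 from 16 with an adjusted p, libraries thinned to one total gave 4 and 0, a loess offset gave 7 and 0, and regions within 20 kb gave 2 and 0 of 9. With a library left out, 3 to 8 were higher and 0 to 1 lower. A replicate block by column letter gave 8 and 2, adding the promoter region. The letters were not taken as pairs in the main fit, since no label says what they mark. Same-letter deviations correlated at 0.083, 0.224 and 0.128, against -0.159 to 0.045 for different letters. Whether a letter marks something shared between the lines was not tested. Over all regions the block gave 10095 higher and 10825 lower. Of the 9 calls, 2 held in all 15 fits and 0 reversed. Among regions not called, the sign turned at 41.6 kb downstream (-0.35 thinned, and -0.071 to 0.21 with a library left out), at 4.3 kb upstream (-0.0056 to 0.55 with a library left out) and at 14.0 kb upstream (0.067 with the loess offset). Over all regions, against 7997 higher and 8306 lower, DESeq2 gave 4785 and 5461, a minimum mean count of 50, which tests fewer regions, 4978 and 5503, thinned libraries 5229 and 4909, and fits without a library 4988 to 9288 and 4780 to 8971. The log2 ratio of summed Zfp42 signal was 0.12, or 0.21 without the strongest region and 0.08 to 0.16 with 1 library left out. Network calls, 48 higher and 20 lower, were 29 and 11 with DESeq2, and 12 lower within 50 kb. Beyond fewer reads, libraries or regions, the cause was not tested. Low counts without Nanog limit the weakest regions most.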
